A study of Mus musculus with 4 samples.

Results

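Distant alternative 3′ splice sites are pairs of acceptors in one exon that compete for the same upstream donor and lie more than 12 nt apart. The unit described is the segment between the 2 acceptors, which stays in the mRNA when the upstream acceptor is used and is removed with the intron when the downstream acceptor is used. The tables of exon trios held 4973 segments of this alternative acceptor class among 192169 middle segments of every class, and 2679 of the 4973 were longer than 12 nt. A segment was kept when its trio had at least 20 junction reads in both libraries of a stage, which left 1939 segments and set aside 740. Of these, 1791 could be compared at E18, 1847 at P1 and 1699 at both stages.

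An acceptor is an AG dinucleotide that follows a branch point and a stretch rich in pyrimidines, the polypyrimidine tract, which is bound by the splicing factor U2AF. PTBP2 and its paralog PTBP1 bind runs of C and U, and they often repress splicing where such runs lie near an acceptor. PTBP2 replaces PTBP1 when progenitors become neurons and is itself reduced as neurons mature. In an exon with 2 acceptors, the bases just before the downstream acceptor form the 3′ end of the segment, so that this tract is part of the mRNA whenever the upstream acceptor is used. A segment whose length is a multiple of 3 adds or removes whole codons, while other lengths move the reading frame when the segment lies in coding sequence.

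RNAseq libraries came from 4 sources, with 1 library for each. All were labelled as from mice of a mixed C56Bl/6:129S2 background, where the authors' methods name C57BL/6. The NesKO library was made from 2 whole brains at embryonic day 18 (E18), in which a nestin-driven Cre removed the floxed exon 4 of *Ptbp2* from neural progenitors and the cells derived from them, and the E18 wild-type library from 2 wild-type brains. The EmxKO library came from the cortex of 1 mouse at postnatal day 1 (P1), in which Emx-Cre removed the exon in projecting neurons of the forebrain, and the P1 library labelled WT came from 1 cortex. The E18 libraries were not strand specific and the P1 libraries were, so that age, tissue, Cre line, animals per library and protocol cannot be told apart between the stages. With 1 library per group there was no replicate check, and each test below compares the reads of 2 libraries and not 2 genotypes.

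The libraries held 48286173 and 50105403 reads over distinct junctions at E18 (NesKO and wild type) and 83061487 and 83345310 at P1 (EmxKO and the library labelled WT). Exon 4 of *Ptbp2* (173 nt, chromosome 3, 119455862 to 119456034) was skipped in 100% of NesKO reads (95% Wilson interval, 98.5 to 100%) and 0.225% of E18 wild-type reads (0.0398 to 1.26%). At P1 the skipping share was 82.6% in the EmxKO (79.9 to 85.1%) and 31.6% in the library labelled WT (29.5 to 33.7%). Exon 4 was thus often missing in the latter, which is the only reference for P1, so no P1 result could be given without it. The 6 neuronal markers summed to 1139 and 1407 junction reads per 1000000 in the NesKO and the E18 wild type, and to 2008 and 2118 in the EmxKO and the P1 library labelled WT. Choroid plexus markers (*Ttr* and *Folr1*) reached 1248 per 1000000 in the NesKO and 671 in its wild type, against 0.385 and 0.252 at P1, and erythroid markers 684, 546, 77.4 and 83.5. The part of these cells in any result was not tested. In bulk RNA, fewer cells of a type and less RNA per cell cannot be told apart.

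A choice of the segments that differed is shown first, from the GENCODE transcripts on the GRCm38 build. They were taken from the named segments after their values were seen, to show what the spliceosome meets at the downstream acceptor. Each is written 5′ to 3′ on the strand of the gene, capitals mark the AG of the downstream acceptor and any TCTT and also any CTCTCT or TTCTCT, and the exon common to both isoforms starts at the next base. All of them lie in coding sequence.
Snap91 (15 nt, minus strand, chr9:86781705-86781719): tgtttgatggtttAG
Gigyf2 (18 nt, plus strand, chr1:87406984-87407001): atggccctcgttctacAG
Kdm4b (21 nt, plus strand, chr17:56394769-56394789): ggaacaacccctTTCTCTaAG
Elf2 (36 nt, minus strand, chr3:51265007-51265042): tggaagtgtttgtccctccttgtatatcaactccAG
Mdga1 (52 nt, minus strand, chr17:29840897-29840948): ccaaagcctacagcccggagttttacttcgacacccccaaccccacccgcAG
Alkbh1 (55 nt, minus strand, chr12:87431539-87431593): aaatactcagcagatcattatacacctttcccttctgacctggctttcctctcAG
Celf3 (84 nt, plus strand, chr3:94487703-94487786): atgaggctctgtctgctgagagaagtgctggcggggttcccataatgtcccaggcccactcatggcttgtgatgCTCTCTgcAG
Dync1i1 (84 nt, plus strand, chr6:5769650-5769733): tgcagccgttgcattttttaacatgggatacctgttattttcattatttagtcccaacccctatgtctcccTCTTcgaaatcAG
Enah (last 60 of 732 nt, minus strand, chr1:181921769-181921828): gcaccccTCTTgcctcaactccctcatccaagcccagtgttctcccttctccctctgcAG
Trmt13 (last 60 of 199 nt, minus strand, chr3:116582725-116582784): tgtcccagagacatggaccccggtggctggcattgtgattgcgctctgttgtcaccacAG

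Pyrimidines made up 8 of the 15 bases of the Snap91 segment, which holds none of the 3 words, and 44 of the 84 bases of the Celf3 segment, which has CTCTCT next to its acceptor. The last 20 bases were 85% pyrimidine in Enah, 70% in Alkbh1 and 60% in Celf3. They were 90% pyrimidine in Rlbp1, a named segment of the 5′ UTR that is not shown. The intron before the Snap91 segment differs by 1 nt between the mm9 coordinates of the tables and GRCm38, and its match allowed for that. The bases upstream of the upstream acceptors were not analysed here.

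Across the 1939 segments, the median length was 52 nt, with a range of 13 to 9771 nt. There were 596 segments of 13 to 30 nt, 502 of 31 to 60, 471 of 61 to 120, 228 over 120 and up to 300 and 142 over 300 nt. Length was a multiple of 3 in 831 of them (42.9%), left a remainder of 1 in 569 and of 2 in 539. A single gene could be named for 1881 segments, from 1541 genes. Members were not all separate exons, since 144 shared their downstream acceptor and 184 their upstream acceptor with another member. Both acceptors were found in the annotation for 1601 segments. A transcript that holds the segment was found for 1592. Of these, 968 lay in coding sequence, 230 in the 5′ UTR, 50 in the 3′ UTR, 212 partly in coding sequence and 132 in transcripts with no coding sequence. Length was a multiple of 3 in 53.3% of the coding segments, 35.7% of those in the 5′ UTR, 25.9% of the partly coding segments and 16.0% of those in the 3′ UTR.

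The measure used was the deposited inclusion ratio after correction, in percent, which gives the share of transcripts that hold the segment and is called PSI. A high PSI was read as use of the upstream acceptor. The ratio and the read minimum also count reads that run from the segment straight into the common exon after it. Segment and exon are adjacent in the genome, so unspliced RNA can also give such reads and raise the PSI. The part of unspliced RNA in any PSI was not tested. The median PSI was 73.1 in the NesKO, 72.9 in the E18 wild type, 72.5 in the EmxKO and 72.4 in the P1 library labelled WT. These medians hide a split, since 39.1 to 39.7% of the segments had a PSI over 90 and 20.5 to 21.9% had one under 10 in each library. Among the 1699 segments measured at both stages, 584 were over 90 and 295 under 10 in all 4 libraries, and none was over 90 in one library and under 10 in another. The PSI stayed within 10 points over the 4 libraries in 1190 of them (70.0%), and the median spread between the highest and the lowest library was 4.80 points. By this measure, most distant acceptor pairs thus kept one dominant site, or the same mix of both, in every library.

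The shortest segments had the lowest median PSI. For 13 to 30 nt, the median PSI was 42.3 in the NesKO, 43.5 in the E18 wild type, 43.0 in the EmxKO and 42.4 in the P1 library labelled WT. For 61 to 120 nt the same medians were 85.4, 85.7, 84.8 and 83.1. Over 300 nt they were 70.1, 69.5, 68.4 and 70.6. The 2 spliced junctions of the segment's own trio gave 82.6, 83.8, 84.1 and 79.8, against 80.6, 83.3, 83.0 and 82.4 for 61 to 120 nt. Full reads take each junction from the trio that lists it with the most reads. They gave 67.3, 72.0, 65.8 and 69.4 over 300 nt. For 61 to 120 nt they gave 73.2, 76.2, 74.4 and 74.5, so the order of these 2 classes depends on the ratio. The quartiles were far apart in every class, from 5.25 to 95.8 for 13 to 30 nt in the E18 wild type. The rule begins at 13 nt. At that length 34 segments had a median of 39.4 in the E18 wild type and 35.5 in the P1 library labelled WT, and the 60 segments of 12 nt just outside it had 37.9 and 47.0.

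**Figure D1:**
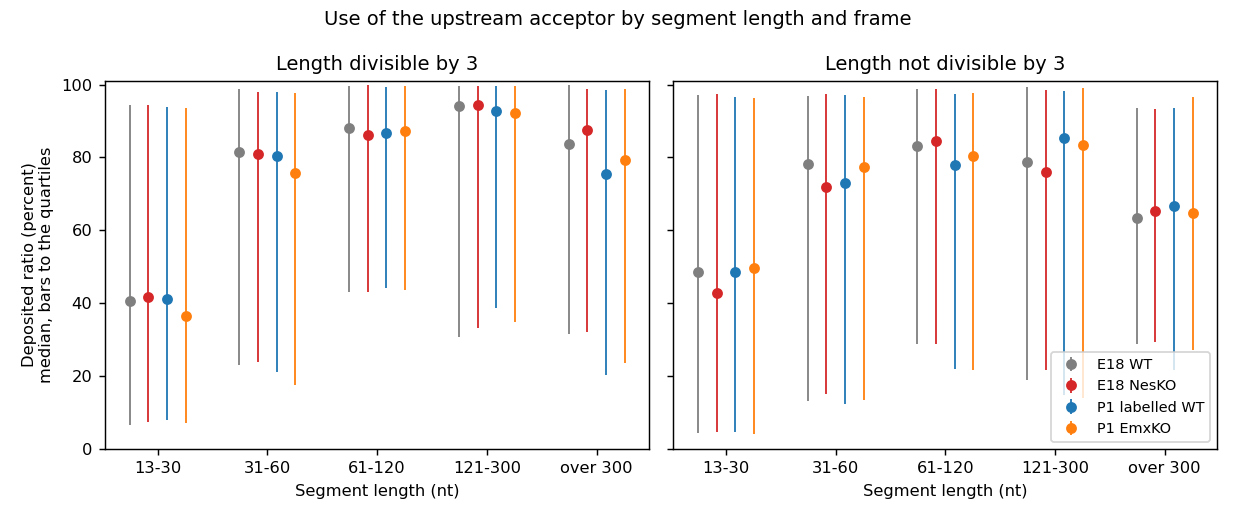
Median PSI of the segments (vertical axis, percent) by length class (horizontal axis, nt) for lengths that are multiples of 3 (left) and other lengths (right), with bars to the quartiles and 1 color per library. Segments of 13 to 30 nt sit lowest in both panels, and the 4 libraries lie close together within each class compared with the quartiles.

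Over all segments, the median PSI values of the 2 frame classes lay close together. Segments with a length divisible by 3 had medians of 74.1, 72.9, 72.9 and 73.7 (NesKO, E18 wild type, EmxKO and the P1 library labelled WT), and the others 71.2, 72.8, 72.2 and 72.1. Within coding sequence the classes lay apart. Coding segments divisible by 3 had medians of 77.5, 76.9, 77.2 and 75.4 in the same order, and the other coding segments 94.2, 93.1, 93.4 and 93.2. In the E18 wild type, 42.7% of the former and 30.8% of the latter had a PSI between 10 and 90. Over all segments the middle of the scale differed somewhat more at P1. In the P1 library labelled WT, 41.1% of the segments divisible by 3 and 37.1% of the others lay between 10 and 90. Segments are not replicates, and no test was applied to these shares.

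Medians were spread more widely over annotation classes than over length or frame. Each class was read from an annotated transcript that uses the upstream acceptor, a protein coding one where available. The part of this choice in the medians was not tested. Coding segments had a median PSI of 86.8 in the E18 wild type and 87.0 in the P1 library labelled WT, and segments in the 5′ UTR 44.6 and 48.5. Partly coding segments were at 28.2 and 24.4, those of transcripts with no coding sequence at 23.7 and 19.9, and those in the 3′ UTR at 13.6 and 10.4. The knockouts gave the same order of coding and 5′ UTR above the other 3, with 87.6 and 43.2 in the NesKO and 86.5 and 52.8 in the EmxKO.

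**Figure D2:**
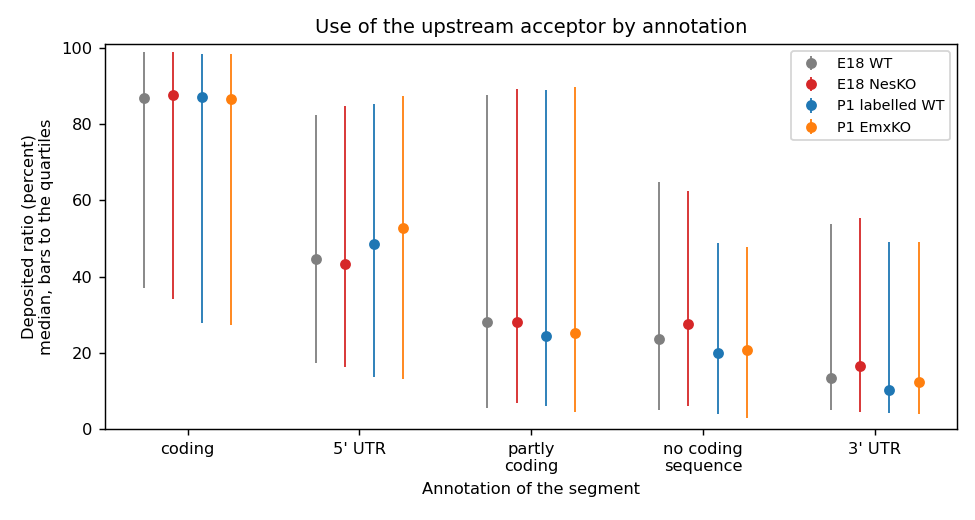
Median PSI (vertical axis, percent, bars to the quartiles) of segments grouped by what the annotation places there, with 1 color per library. Coding segments lie near 87 in all libraries and 3′ UTR segments between 10.4 and 16.5.

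The kind of transcript that carries each acceptor followed the same line. In 929 segments both acceptors occur in protein coding transcripts, 64.6% of these lengths were multiples of 3, and the median PSI was 71.0 in the E18 wild type and 71.6 in the P1 library labelled WT. In 207 segments the upstream acceptor was in protein coding transcripts, while the downstream acceptor was in transcripts marked for nonsense-mediated decay and in no protein coding one. These segments had a median PSI of 97.2 and 97.0, and 4.83% were multiples of 3. The reverse arrangement, with the upstream acceptor in decay transcripts and in no protein coding one, applied to 214 segments with medians of 8.50 and 8.10, of which 15.4% were multiples of 3. Nonsense-mediated decay is the pathway that degrades mRNAs with an early stop codon, so a low share in the mRNA pool counts both how often a site was chosen and how long its product lasted. In the knockouts, the medians of these last 2 groups were 97.1 and 8.60 in the NesKO and 96.9 and 7.15 in the EmxKO.

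Sequence at the downstream acceptor could be read for 1592 segments, of which 1590 (99.9%) ended in AG. In the 1383 of at least 20 nt, the last 20 bases held a median of 65.0% pyrimidines, with quartiles of 55.0 and 70.0. Segments with a median PSI over 90 had 60% (n = 509) and those with a median under 10 had 65.0% (n = 251). TCTT was found on the sense strand within the last 100 bases in 37.4% of segments, CTCTCT in 5.40% and TTCTCT in 6.85%, where the latter 2 words can overlap. These are matches of letters in windows of unequal length, not binding sites. TCTT was present in 44.9% of the segments that rose by 10 points in the NesKO (n = 78), 31.9% of those that fell (n = 69) and 36.6% of the rest, whose median lengths were 72, 63.0 and 54.0 nt. At P1 the corresponding shares were 39.7%, 52.6% and 37.1% (n = 58, 38 and 1417), so the order of the risen and fallen segments was opposite at the 2 stages.

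At E18 the question was which acceptors differ between brains with and without *Ptbp2*. A difference of 10 points or more in PSI was found for 171 of 1791 segments (9.55%), which lies close to the 9.77% of all 12952 alternative segments tested and above the 2.21% of 133700 segments of every class. There were 89 higher and 82 lower in the NesKO. Cassette exons passed 10 points in 10.9% and acceptors within 12 nt in 6.95%. Upward and downward changes were nearly even among the distant acceptors (4.97% and 4.58% of the segments tested), against 5.76% and 4.01% among all alternative segments and 6.98% and 3.94% among cassette exons, and whether these differ was not tested. The balance turned with the ratio, to 84 up and 116 down from the 2 spliced junctions of the own trio and to 87 up and 108 down from full reads. The median change was 0.0 points.

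Read depth marked the segments past 10 points. In the NesKO they had a median of 67 junction reads, and in its control a median of 68, against 188.5 and 188 for the segments under 10 points, and 45% of them had under 50 reads in a library (17.1% of all tested). In 9 of the 171 neither library had a read that skipped the segment, so that their ratios rest on coverage alone. At the median depth of all segments tested, the smallest share that 3 reads allow was 1.75% (NesKO) and 1.70% (wild type). Lengths of over 300 nt passed 10 points most often, in 25 of 132 segments (18.9%), and lengths of 13 to 30 nt least often, in 39 of 538 (7.25%). Segments in the 5′ UTR did so in 29 of 200 (14.5%) and coding segments in 69 of 905 (7.62%).

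Changes that also passed a test on reads were rarer. Fisher's exact test compared the reads that join the shared donor to each acceptor, adjusted with the Benjamini-Hochberg method over all 133700 segments. It left 6 segments with 10 points and an adjusted p under 0.05 (0.335%), against 1.1% of all alternative segments and 1.66% of cassette exons. Of the 6, 3 were up and 3 down, where the shares of all alternative segments were 0.772% up and 0.324% down. How the tables count a read that crosses both junctions of a short segment is not given in the sources used here. In constitutive exons of 13 to 30 nt the second junction in genome order carried a median of 13.6 to 16.1% of the inclusion reads, while in exons of 91 to 120 nt it carried 48.6 to 50.7%. On the minus strand this second junction is the one that enters the segment. In the E18 wild type, the share of own-trio reads into the segment had a median of 80.4% on the plus strand and 37.4% on the minus strand. The median PSI of that library was 77.9 on the plus and 67.55 on the minus strand. The part of read counting in the PSI was not tested. The test was repeated with the full reads of each junction, taken from the trio that lists the junction with the most reads, which gave 7 segments (1.08% of all alternative segments passed in this way), 5 of them in common with the first count.

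**Figure D3:**
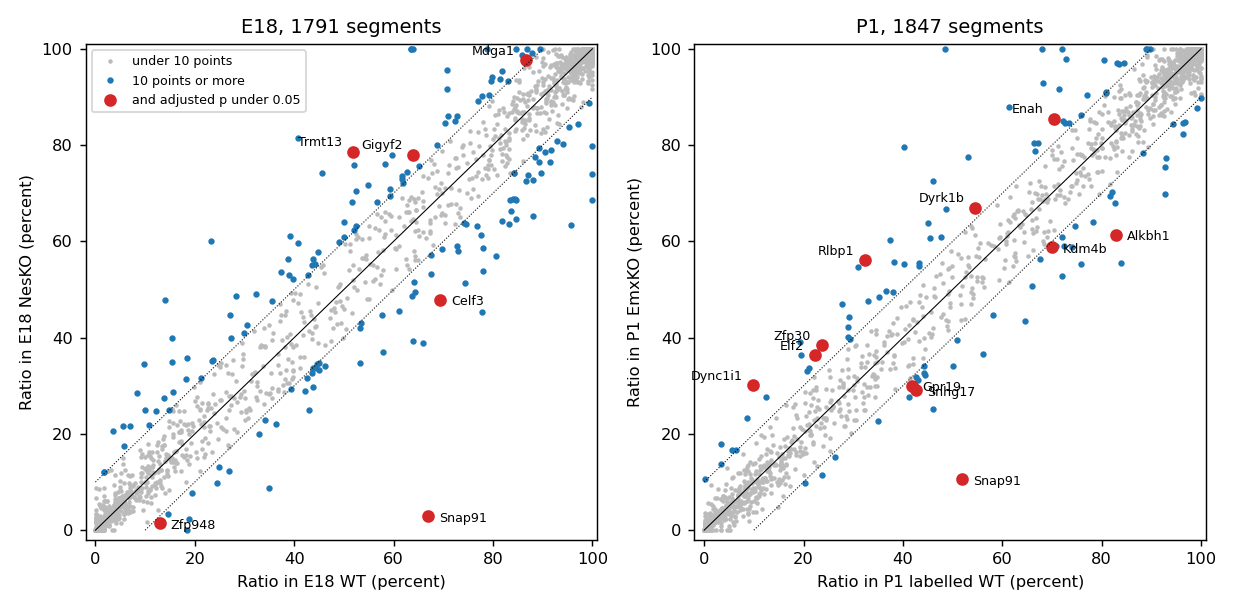
PSI of each segment in the knockout (vertical axis, percent) against the control library of its stage (horizontal axis, percent), at E18 (left) and P1 (right). Gray points differ by under 10 points, blue points by 10 or more (dotted lines) and red points also pass the adjusted exact test. Blue points lie on both sides of the diagonal, and Snap91 stands far below it at both stages.

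*Snap91* had the largest change at E18, and at P1 the largest of those that passed the test. It encodes AP180, a clathrin assembly protein of synaptic vesicle recycling, and its segment of 15 nt (chromosome 9, 86676539 to 86676553, minus strand, mm9) adds 5 codons. The PSI was 67.0 in the E18 wild type and 2.90 in the NesKO, and 51.9 in the P1 library labelled WT and 10.6 in the EmxKO. Both control libraries thus used each acceptor often, and both knockouts used the upstream one seldom. Counted from full reads, 569 joined the donor to the upstream acceptor and 284 to the downstream acceptor in the E18 wild type (66.7% upstream, 63.5 to 69.8%), against 34 and 629 in the NesKO (5.13%, 3.69 to 7.08%). At P1 these reads were 761 and 762 in the library labelled WT (50%, 47.5 to 52.5%) and 275 and 1506 in the EmxKO (15.4%, 13.8 to 17.2%). The adjusted p from Fisher's exact test was 1.5e-41 at E18 and 2.3e-25 at P1 on the reads of the segment's own trio, and 1.3e-145 and 9.8e-99 on full reads. All intervals are 95% Wilson intervals and cover counting error only, since PCR copies are not independent molecules.

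*Celf3* encodes a neuronal RNA-binding protein that regulates splicing. Its segment of 84 nt (chromosome 3, 94291625 to 94291708, plus strand) adds 28 codons. The PSI was 69.4 in the E18 wild type, 47.9 in the NesKO, 48.6 in the P1 library labelled WT and 43.7 in the EmxKO, so that the E18 wild type stood above the other 3 libraries. The reads into and past the segment were 267 and 144 in the E18 wild type and 197 and 249 in the NesKO (adjusted p = 1.5e-06, Fisher's exact test, and 5.8e-04 on full reads). At P1 the change of 4.90 points downward did not pass the test (adjusted p = 1, the same exact test).

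The third fall at E18 was in *Zfp948*, a zinc finger gene, where 33 nt (chromosome 17, 21705980 to 21706012, plus strand) had a PSI of 12.9 in the wild type and 1.40 in the NesKO. In its own trio no read of 97 entered the segment in the NesKO, where 3 reads would be a share of 3.09%, and 20 of 138 did in its control, with an adjusted p of 0.0084 from Fisher's exact test. On full reads it was 0 of 154 and 20 of 219, a change of 9.13 points downward that lies under the threshold of 10 (adjusted p = 0.010, the same exact test). At P1 the PSI was 12.4 in the library labelled WT and 10.2 in the EmxKO.

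Of the rises that passed the test, *Trmt13*, which encodes a tRNA methyltransferase, had the largest. Its 199 nt (chromosome 3, 116285643 to 116285841, minus strand) leave a remainder of 1, and the downstream acceptor is annotated only in transcripts subject to nonsense-mediated decay. The PSI was 51.8 in the E18 wild type and 78.6 in the NesKO, where 37 and 23 reads passed the segment while 22 and 75 entered it (adjusted p = 9.9e-04, Fisher's exact test). In P1 cortex it was 86.8 in the library labelled WT and 89.0 in the EmxKO, so that the E18 wild type again stood apart. *Gigyf2*, which encodes an adaptor protein that represses translation, was also lowest in the E18 wild type at its segment of 18 nt (chromosome 1, 89303559 to 89303576, plus strand). Its PSI was 64.0, 78.0, 77.2 and 80.5 in the E18 wild type, the NesKO, the P1 library labelled WT and the EmxKO. The E18 difference had an adjusted p of 0.026 on its own reads and 0.085 on full reads (Fisher's exact test).

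*Mdga1* encodes a membrane-anchored protein of the immunoglobulin family that binds neuroligins at synapses. The 52 nt of its segment (chromosome 17, 29977842 to 29977893, minus strand) had a PSI of 86.6 in the E18 wild type and 97.6 in the NesKO, and 93.3 and 98.0 at P1. The downstream acceptor is listed only in a transcript with a retained intron, and the length leaves a remainder of 1. Full reads gave 66.7% in the E18 wild type (59.2 to 73.4%) and 85.6% in the NesKO (81.0 to 89.2%), with an adjusted p of 0.0025 (Fisher's exact test, and 0.013 on the reads of its own trio).

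On full reads alone, *Anapc5* and *Fkbp2* also passed at E18. Both lie on the minus strand and outside the rule for named segments, and they were chosen after their values were seen. *Anapc5*, a subunit of the anaphase-promoting complex, had 39 nt at a PSI of 43.8 in the wild type and 56.4 in the NesKO, with 1770 and 1739 full reads into the segment and 2218 and 1523 past it (adjusted p = 7.2e-11, Fisher's exact test). Full reads put the E18 difference of *Anapc5* at 8.93 points (44.4% and 53.3%), below 10. At P1 its PSI was 65.4 in the library labelled WT and 70.2 in the EmxKO. *Fkbp2*, an isomerase of the endoplasmic reticulum, had 36 nt in its 5′ UTR at 53.5 and 43.0 (adjusted p = 3.4e-04, Fisher's exact test), against 38.9 and 44.1 at P1.

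In P1 cortex, 109 of 1847 segments (5.90%) lay 10 points or more apart, 63 upward and 46 downward in the EmxKO. All alternative segments together gave 7.58% (5.06% up and 2.52% down), segments of every class 1.46%, cassette exons 9.42% and acceptors within 12 nt 5.04%. The segments past 10 points had a median of 64 junction reads in the EmxKO and 72 in the library labelled WT, against 317.5 and 331.5 for the others, and 48.6% of them had under 50 reads in a library. At the median depth of 295 and 307 reads, 3 reads are a share of 1.02% and 0.977%. Segments in the 5′ UTR passed 10 points in 25 of 207 (12.1%) and coding segments in 47 of 929 (5.06%). With the adjusted exact test as well, 11 segments remained (0.596%), 6 up and 5 down, against 1.58% of all alternative segments (1.24% up and 0.345% down). On full reads there were 10, against 1.54% of all alternative segments, and 8 were in both counts.

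Among these, segments of 2 cytoskeleton genes rose. *Dync1i1* encodes an intermediate chain of the motor dynein that is abundant in neurons, and its segment of 84 nt (chromosome 6, 5719650 to 5719733, plus strand) adds 28 codons. The PSI was 9.90 in the P1 library labelled WT and 30.1 in the EmxKO, and 3.10 and 12.6 in the E18 wild type and the NesKO. Segments of 51 and 33 nt of *Dync1i1* were also members, with a median PSI over the 4 libraries of 3.75 and 85.95. The first 51 of the 84 bases end in AG, so another acceptor may lie inside the segment. The PSI of the 84 nt then compares only the outer sites. In its own trio 74 reads entered and 267 passed the segment in the P1 library labelled WT, against 227 and 180 in the EmxKO (adjusted p = 1.7e-18, Fisher's exact test). The full reads, which add other upstream contexts of the same donor, gave 36.4% (32.9 to 40.0%) and 52.9% (49.2 to 56.6%), with an adjusted p of 4.4e-07 from the same exact test. *Enah* encodes Mena, an actin regulator at the leading edge of growth cones. Its segment of 732 nt (chromosome 1, 183851900 to 183852631, minus strand) had a PSI of 70.4 in the P1 library labelled WT and 85.5 in the EmxKO (adjusted p = 6.5e-06, Fisher's exact test), and 92.9 and 96.3 at E18. Its junction reads alone put the P1 difference at 8.07 points (83.4% and 91.5% from full reads), below the threshold of 10.

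*Rlbp1*, which encodes a retinaldehyde-binding protein, had the largest rise at P1 that passed the test. The 82 nt in its 5′ UTR (chromosome 7, 86528849 to 86528930, minus strand) were at 32.4 in the library labelled WT and 56.1 in the EmxKO, and at 37.1 and 43.5 in the E18 wild type and the NesKO. The full reads were 183 into and 162 past the segment in the former P1 library and 413 and 169 in the latter (adjusted p = 3.8e-05, Fisher's exact test). *Dyrk1b*, a protein kinase, had 120 nt of coding sequence (chromosome 7, 28970733 to 28970852, plus strand) at 54.6 and 67.0 (adjusted p = 0.0041, Fisher's exact test, and 0.053 on full reads). At E18 it was at 52.4 and 60.5, under 10 points apart. The E18 reads had an adjusted p of 0.023 in its own trio and 0.047 on full reads (Fisher's exact test). Full reads gave 26.9% in the E18 wild type and 45.2% in the NesKO. At P1 they gave 51.1% in the library labelled WT and 66.3% in the EmxKO.

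Elf2 and Zfp30, both of which encode DNA-binding proteins, also rose in the EmxKO. The 36 nt of *Elf2*, an ETS factor (chromosome 3, 51068929 to 51068964, minus strand), had a PSI of 22.3 in the P1 library labelled WT and 36.3 in the EmxKO, and 32.4 and 49.0 in the E18 wild type and the NesKO. Its P1 change had an adjusted p of 0.043 on own reads and 8.4e-07 on full reads (Fisher's exact test), and its E18 change an adjusted p of 1 on both. *Zfp30* had 44 nt (chromosome 7, 30571194 to 30571237, plus strand), held only by a transcript with a retained intron, at 23.7 and 38.4 (adjusted p = 0.018, Fisher's exact test), and at 41.2 and 49.0 at E18.

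Besides *Snap91*, 4 segments fell at P1. *Alkbh1*, a dioxygenase that removes methyl groups from nucleic acids, had 55 nt (chromosome 12, 88772489 to 88772543, minus strand) at a PSI of 82.8 in the P1 library labelled WT and 61.4 in the EmxKO (adjusted p = 0.010, Fisher's exact test). It was at 84.7 in the E18 wild type and 68.5 in the NesKO, from 24 and 29 own reads, and this change did not pass the test (adjusted p = 1, the same exact test). Its downstream acceptor is annotated only in a transcript subject to nonsense-mediated decay. *Kdm4b*, a histone demethylase, had 21 nt (chromosome 17, 56534192 to 56534212, plus strand) at 70.0 and 58.8 at P1 (adjusted p = 4.3e-04, Fisher's exact test) and 69.5 and 65.4 at E18. *Gpr19*, an orphan receptor coupled to G proteins, had 39 nt (chromosome 6, 134820462 to 134820500, minus strand) at 41.8 and 30 at P1 and at 26.8 and 27.8 in the E18 wild type and the NesKO. The noncoding *Snhg17* had 126 nt (chromosome 2, 158186807 to 158186932, minus strand) at 42.7 and 29.1 at P1, and at 27.5 and 32.4 at E18, so that neither was lower in the NesKO than in its wild type. The latter 2 had adjusted p values of 0.041 and 0.024 on own reads and 0.22 each on full reads (Fisher's exact test).

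**Figure D4:**
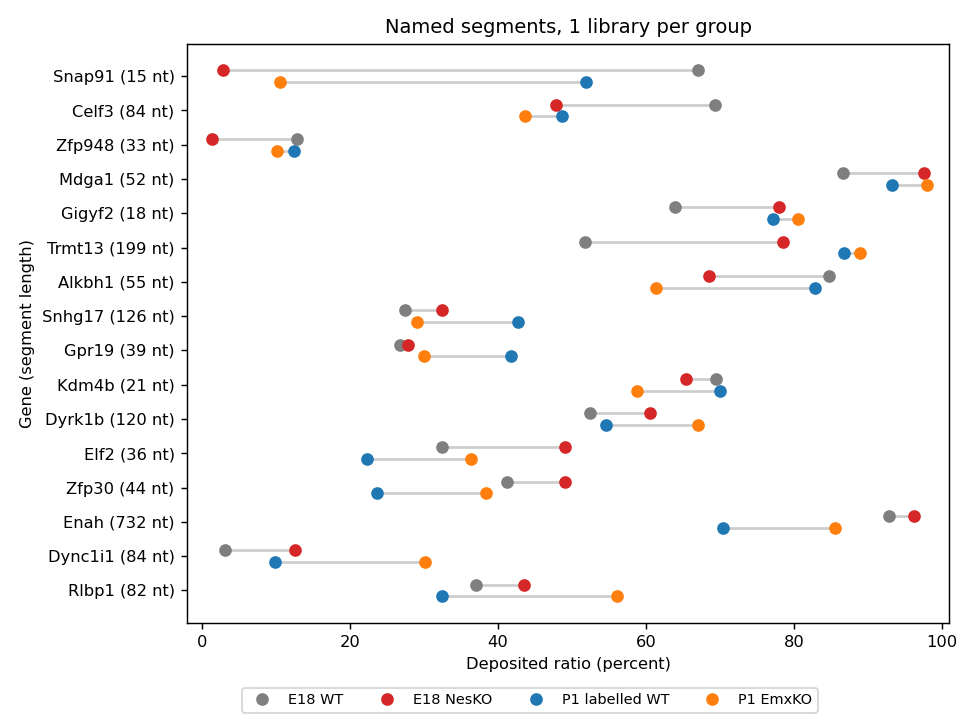
PSI (horizontal axis, percent) of the 16 named segments in each of the 4 libraries, 1 point per library, with the upper line of each gene for E18 and the lower for P1. Snap91 falls at both stages, while Celf3 and Trmt13 move at E18 and have nearly equal values in the 2 libraries at P1.

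Segments past 10 points at both stages were counted without the same count for all alternative segments. The numbers below therefore describe this class only. Of the 1699 tested at both, 151 passed 10 points at E18 and 72 at P1, and 15 passed at both in the same direction, 6 upward and 9 downward, while 6 passed in opposite directions. The E18 and P1 comparisons share no library. Of the 15, 11 had under 100 junction reads in some library, as had 5 of the 6 that moved in opposite directions. *Snap91* alone met the rule for named segments at both stages. Elf2 and Alkbh1 met it at P1 and passed 10 points at E18.

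The rest of the 15 fall outside that rule and were picked out after their values were seen. *Fam213a* had 17 nt at 50 in the E18 wild type and 64.1 in the NesKO, and at 36.6 in the P1 library labelled WT and 49.6 in the EmxKO. Its adjusted p on full reads was 0.14 at E18 and 4.3e-05 at P1 (Fisher's exact test). *Otof*, which encodes the vesicle fusion protein otoferlin, had 60 nt at 40.7 and 81.4 at E18 and 31 and 54.6 at P1, on 31 to 59 reads per library. *Mbnl1*, a splicing regulator of the muscleblind family, had 105 nt at 72.8 and 86.0 at E18 and 67.9 and 99.9 at P1, on 23 to 68 reads. *Syt3*, a calcium sensor of the synaptotagmin family, had 27 nt at 34.1 and 22.8 at E18 and 41.2 and 27.7 at P1, on 72 to 320 reads. None of the last 3 passed the exact test at either stage.

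**Figure D5:**
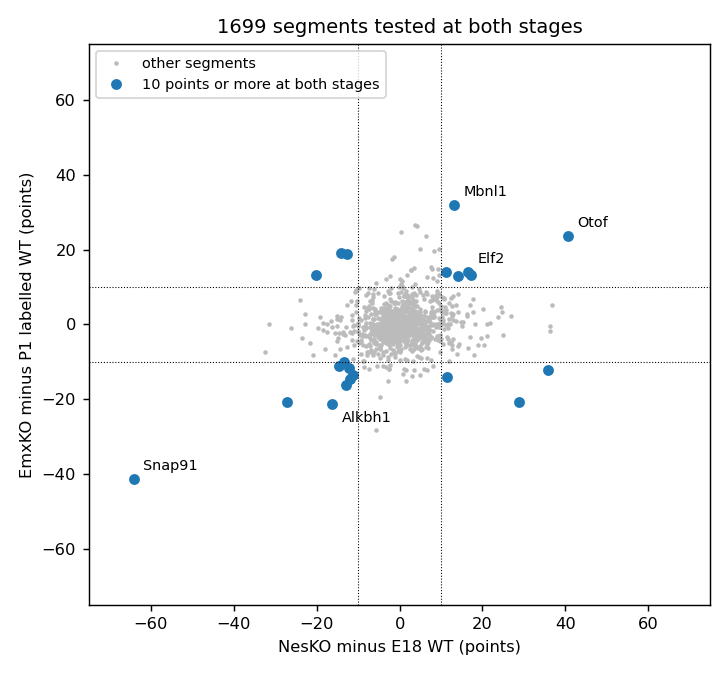
Change in PSI at P1 (EmxKO minus the P1 library labelled WT, vertical axis, points) against the change at E18 (NesKO minus wild type, horizontal axis, points) for the 1699 segments tested at both stages, with dotted lines at 10 points. The 21 blue points passed 10 points at both stages, 15 of them in the same direction, and Snap91 lies far to the lower left.

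Genes were also counted by function, where all distant acceptors together gave 9.55% past 10 points at E18 and 5.90% at P1, and 0.335% and 0.596% with the exact test as well. Of 99 genes of RNA processing, 27 had a segment tested at E18, 40 segments in all, and 2 of these (5%) passed 10 points, *Mbnl1* upward and *Celf3* downward. At P1, *Mbnl1* was the only one of 40 (2.5%). Of 74 genes of the synapse and vesicle release, 15 had 18 segments, and 5 of them (27.8%) passed 10 points at E18, 2 upward and 3 downward. These 5 were *Cacna1d*, *Camk2d*, *Dnm1*, *Sorbs2* and *Syn1*, none of which passed the exact test. *Syn1*, which encodes the vesicle protein synapsin, had 38 nt at 57.9 in the E18 wild type and 37.1 in the NesKO, and 51.7 and 43.6 at P1. *Dnm1*, which encodes the neuronal dynamin, had 850 nt at 37.4 and 53.6 at E18 and 22.8 and 25.5 at P1. At P1, 2 of the 18 (11.1%) passed 10 points, neither with the exact test. The 989 nt of *Camk2d* were at 82.6 in the library labelled WT and 68 in the EmxKO, and at 90.5 and 78.5 at E18, and the 33 nt of *Homer2* at 32.9 and 47.7, and at 45.8 and 55.1 at E18.

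For the cytoskeleton and axon growth, 23 of 78 genes had 28 segments at E18. Of these, 2 (7.14%) were lower by over 10 points, in *Dync1i2* and *Numb*, neither with the exact test. At P1, 2 of 27 rose (7.41%), *Dync1i1* and *Enah* as described, and both passed the exact test. In *Dync1i2*, the paralog of *Dync1i1*, 15 nt had a PSI of 64.3 in the E18 wild type and 49.4 in the NesKO (adjusted p = 1, Fisher's exact test). Chromatin and transcription had 29 segments from 19 of 78 genes at E18, with 2 (6.9%) past 10 points, both in the corepressor *Ncor1*. Both rose, from 42.7 to 53.0 at 120 nt and from 61.8 to 72.2 at 168 nt, and neither passed the exact test. A segment of 48 nt of *Ncor1* was also a member, so the 2 may share an acceptor. At P1, 2 of 27 (7.41%) passed 10 points, *Tcf7l2* upward and *Foxp2* downward, and neither passed the exact test. Membrane traffic and signalling had 18 segments from 15 of 79 genes, with 2 (11.1%) up at E18, in *Itsn1* and *Mink1*, and none past 10 points at P1. Neither rise at E18 passed the exact test. Medians of the change over the 5 lists lay between -0.40 and 0.60 points at both stages, and over all segments at 0.0.

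More of these acceptors differed between the stages and tissues than between knockout and control. Between the P1 library labelled WT and the E18 wild type, 326 of 1758 segments (18.5%) differed by 10 points, 145 higher and 181 lower at P1, where all alternative segments gave 19.2% (7.96% higher and 11.2% lower). With the adjusted exact test, 77 remained (4.38%), 28 higher and 49 lower at P1, against 6.1% of all alternative segments (2.3% higher and 3.8% lower). On full reads there were 90, against 6.43%. This comparison shares each of its libraries with one of the knockout comparisons, so no overlap with them is given. Segments over 300 nt passed 10 points in 39 of 123 (31.7%), those in the 5′ UTR in 63 of 195 (32.3%) and coding segments in 136 of 893 (15.2%). The segments named next are a choice from those that the rule for named segments gave, applied after the values were seen. The largest rise by this rule, in *Metap1d* (22 nt), was from 5.10 in the E18 wild type to 44.5 in the P1 library labelled WT. Its full reads gave 2.35% and 15.9%.

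Among the acceptors used less at P1, the largest fall by this rule was in *Atp13a2*, a lysosomal transport ATPase, where 74 nt (chromosome 4, 140562594 to 140562667, plus strand) had a PSI of 83.2 in the E18 wild type and 30.7 in the P1 library labelled WT. The knockouts lay beside their own controls, at 81.4 and 31.6. On full reads its difference was 17.8 points (38.9% and 21.1%), so that the rank depends on the deposited ratio. In its own trio, 1869 E18 wild-type reads ran from the segment straight into the exon after it, against 253 into and 301 past the segment. In the P1 library labelled WT these reads were 488, 286 and 1089. The part of unspliced RNA in this difference was not tested. *Map4k4*, a protein kinase that acts on the cytoskeleton, fell from 68.4 to 32.8 at its 93 nt (chromosome 1, 40057376 to 40057468, plus strand), with 65.1 in the NesKO and 38.4 in the EmxKO, and its full reads gave 58.4% and 27.1% in the libraries labelled WT. *Hnrnpc*, a nuclear RNA-binding protein, had 25 nt in its 5′ UTR (chromosome 14, 52704067 to 52704091, minus strand) at 39.7 and 12.9, and at 38.1 and 12.7 in the knockouts, while full reads gave 25.2% and 12.1% in the libraries labelled WT. The adjusted p values from Fisher's exact test between the E18 wild type and the P1 library labelled WT were 7.6e-24, 3.6e-120 and 8.3e-45 for these 3.

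*Ehbp1*, which encodes a protein of endocytic traffic, had 75 nt (chromosome 11, 22046629 to 22046703, minus strand) at 27.0 in the E18 wild type and 62.3 in the P1 library labelled WT (adjusted p = 1.2e-08, Fisher's exact test), with 44.8 in the NesKO and 65.6 in the EmxKO. *Hnrnpk*, an RNA-binding protein of nucleus and cytoplasm, had 60 nt (chromosome 13, 58493778 to 58493837, minus strand) at 41.3 and 61.6 (adjusted p = 8.3e-10, Fisher's exact test), with 45.4 and 64.1 in the NesKO and the EmxKO. Full reads put its difference at 8.93 points (49.7% and 58.6%), below 10. *Ivns1abp*, an actin-binding protein, had 962 nt (chromosome 1, 153202297 to 153203258, plus strand) at 20.4 and 43.2 (adjusted p = 1e-38, Fisher's exact test), with 27.7 and 39.3 in the knockouts. *Trmt13* and *Anapc5* were among the largest rises as well, by 35.0 and 21.6 points, and *Celf3* fell by 20.8 points, with the E18 knockout values given above.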

How the data were processed

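RNAseq of 4 libraries (1 per group) was analysed. The authors aligned reads of 100 nt to mm9 exon trios with SpliceTrap and deposited, per trio and library, counts of reads on the 3 junctions and inclusion ratios, before and after its correction, as a fraction from 0 to 1, printed here in percent. Versions are not given in the sources used here; the submitters' processing notes also name CASAVA, TopHat and Cufflinks. One trio per middle segment (most junction reads over the 4 libraries) was kept, if each of the 2 libraries compared had 20 junction reads or more. A change was called at 10 points. Fisher's exact test (two-sided, scipy 1.17.1) used the junctions from the shared donor to each acceptor, with Benjamini-Hochberg adjustment over all segments tested. The effects at both stages were compared with a Wald test (0.5 added to each count) and Zelen's exact test of equal odds ratios. Named segments had 10 points, an adjusted p under 0.05, the same sign and 50 reads on these junctions (the 8 largest per direction and stage, and listed genes). Genes and sequences came from GENCODE M21 (GRCm38), matched by exon and intron lengths. Members and gene lists were chosen with earlier results of these data known. The test was checked on simulated data. Alternatives covered read minimums, ratio, threshold, trio choice and full junction reads; the last, and Zelen's test, were added after seeing the data.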

Additional observations from a re-analysis of the deposited data

Results flagged for a closer look

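The change between knockout and control differed between E18 and P1 in 5 of 1699 segments by the Wald test on the reads of the segment's own trio, adjusted with the Benjamini-Hochberg method, and at an unadjusted p under 0.05 in 85. Zelen's exact test of equal odds ratios, added after seeing the data, gave 6 segments. The same counts over segments of every class are not given here, so these numbers describe distant acceptors only. In *Celf3* (84 nt) the PSI fell by 21.5 points at E18 and by 4.9 at P1 (adjusted p = 0.014, Wald test, and 0.013, Zelen's exact test). *Map4k4* (93 nt) fell by 3.3 points at E18 and rose by 5.6 at P1 (adjusted p = 4.3e-04, Wald test, and 4.7e-04, Zelen's exact test). *Pcnp* (52 nt) fell by 6.2 and rose by 9.5 points (adjusted p = 0.0081, Wald test, and 0.011, Zelen's exact test). *Arfgap1*, which encodes a GTPase-activating protein of the Golgi, fell by 8.2 and rose by 7.9 points at 68 nt of its 5′ UTR (adjusted p = 0.033, Wald test, and 0.034, Zelen's exact test). *Zmiz2* (96 nt) fell by 6.2 and rose by 1.5 points (adjusted p = 0.026 by the Wald test and by Zelen's exact test). Of these 5, only the change of *Celf3* at E18 passed both 10 points and the adjusted exact test of a single stage. *Bcas2*, which encodes a subunit of the spliceosome, passed by the exact test alone. Of its 41 nt, 29 reads entered and 1080 passed the segment in the NesKO, and none of 1707 entered it in the E18 wild type, where a PSI of 0.1 rose to 2.3, against 2 and 2.4 at P1 (adjusted p = 6.2e-05, Zelen's exact test, and 1, Wald test). *Snap91* fell by 64.1 and 41.3 points, and its stages differed on full reads (adjusted p = 3.9e-16, Wald test, and 5.2e-21, Zelen's exact test) but not past the threshold on the reads of its own trio (adjusted p = 1, Wald test, and 0.068, Zelen's exact test), where no NesKO read entered the segment. Each stage had 1 library per genotype, and age, tissue, Cre line and protocol cannot be told apart in these differences. The share of *Ptbp2* reads without exon 4 was also unlike between the stages, at 100% and 82.6% in the knockouts and 0.225% and 31.6% in the libraries labelled WT. Its part in the differences was not tested.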

How the results depend on the processing

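No paired analysis was possible because each group had 1 library, so that the groups compared share fewer than 2 replicate numbers. At E18, 171 segments passed 10 points, and the count was 94 with a minimum of 50 reads, 33 with a threshold of 20 points, 6 with the adjusted exact test and 7 with that test on full reads. At P1 the main count of 109 became 56, 21, 11 and 10 under these settings. The 15 segments changed the same way at both stages became 9 with a minimum of 50 reads, 28 with 10, 29 with the ratio from the 2 spliced junctions, 3 at 20 points and 1 with the adjusted exact test. Between the libraries labelled WT, 326 became 111 at 20 points, 77 with the test and 90 with it on full reads. At 20 points the share of higher segments at P1 was 66.7%, against 57.8% at 10 points, while there were 28 up and 28 down with a minimum of 50 reads and 80 up and 82 down with the ratio from the 2 spliced junctions. The other settings left each of these counts within 1.5 times its main value, and the cause of the moves was not tested beyond fewer segments entering. Medians depended on the ratio. From the 2 spliced junctions in the segment's own trio, the median for 13 to 30 nt was 11.6 (NesKO), 12.1 (E18 wild type), 14.4 (EmxKO) and 15.1 (P1 labelled WT), and for 31 to 60 nt 61.5, 64.3, 57.3 and 61.5. Lengths divisible by 3 had 63.6 (NesKO), 66.3 (E18 wild type), 62.3 (EmxKO) and 61.2 (P1 labelled WT), and other lengths 55.6, 57.3, 57.3 and 58.2 in the same order. From full reads, the median for 13 to 30 nt was 35.1 (NesKO), 36.6 (E18 wild type), 34.0 (EmxKO) and 35.3 (P1 labelled WT). For 31 to 60 nt it was 64.8 (NesKO), 66.6 (E18 wild type) and 65.7 (P1 labelled WT), and for 61 to 120 nt 73.2, 76.2 and 74.4 (NesKO, E18 wild type, EmxKO). For lengths divisible by 3 the full reads gave 64.3, 65.2, 62.3 and 62.2, and for other lengths 63.3 (NesKO) and 64.1 (P1 labelled WT). Of the named segments, the stages differed in 1 on own reads, by the Wald and by Zelen's exact test, and in 2 on full reads. All 17 named changes kept their direction under all 6 alternatives, and 12 of 102 values fell short of 10 points or of the adjusted p. These 12 concerned *Enah* and *Zfp948* under 3 and 2 settings, *Gpr19* under 2, and *Kdm4b*, *Gigyf2*, *Snhg17*, *Elf2* and *Dyrk1b* under 1 each. The direction was in part fixed in advance. The rule for named segments required the same sign by the 2 spliced junctions, and the adjustment without constitutive exons reused the same change. Apart from that adjustment and the full reads, the settings reused the adjusted p of the main test, which was already under 0.05. Segments past 10 points had medians of 64 to 72 reads in the libraries compared.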
